A study of Mus musculus with 6 samples.

Results

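The genes of the cytosolic ribosomal proteins, the proteins that together with ribosomal RNA build the ribosome of the cytoplasm, were followed in cultured mouse aortic smooth muscle cells with floxed or Cre-deleted Smyd2. They were chosen by symbol from the deposited expression table: Rpl or Rps followed by a number and a few optional letters, Rpsa, and the stalk genes Rplp0, Rplp1 and Rplp2. This gave 81 of 18112 listed genes, of which 1125 carry no symbol. There were 46 genes of the large subunit, 30 of the small subunit and 5 paralogs, which are second copies with a related sequence (Rpl3l, Rpl7l1, Rpl22l1, Rpl36al and Rps27l). The other paralogs looked for, Rpl10l, Rpl39l and Rps4l, are not listed in the table. Of the 81 genes, 80 had a mean of 0.5 FPKM or more and were tested, and Rpl3l did not. FPKM counts the fragments of a gene, divided by transcript length and by library size.

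The cells were primary vascular smooth muscle cells from the medial layer of the thoracic aorta of C57BL/6 mice aged 8 to 10 weeks. Controls were Smyd2 fl/fl littermates (labelled Flox, 3 libraries), and the other group was Smyd2 SMC-/- (labelled SMYD2 KO, here KO, 3 libraries), in which a Cre under the Tagln (SM22 alpha) promoter acts on the same floxed alleles. Tagln is also expressed in cells other than smooth muscle. The labels give cells at passage 6 in medium with 10% serum, while the study's methods give passage 4 and overnight starvation, so the growth state of the sequenced cells is uncertain. The study's methods name the BGISEQ-500 as the sequencer. The depth, read from the spacing of the lowest FPKM values, was about 18300000, 19900000 and 19700000 fragments in Flox 1, 2 and 3 and about 17400000, 19600000 and 19000000 in KO 1, 2 and 3. The labels do not say whether the libraries of a group came from separate animals or cultures, so the p-values measure only the spread between these samples.

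Smyd2, which encodes a lysine methyltransferase, had 7.87, 3.10 and 3.0 FPKM in Flox 1, 2 and 3 and 1.67, 0.40 and 0.80 FPKM in KO 1, 2 and 3. Every KO library lay below every Flox library. The mean was 4.66 ± 2.78 FPKM (SD, n = 3) against 0.957 ± 0.649, a log2 fold change of −1.48 with a standard error of 0.389 (limma, adjusted p 0.105). A block for the replicate number, which compares Flox 1 with KO 1 and so on, gave an adjusted p of 0.0189. Both replicate 1 libraries stand apart from the rest: across the tested genes Spearman's rho was 0.992 between Flox 2 and Flox 3 and 0.989 between KO 2 and KO 3, whereas Flox 1 and KO 1 had 0.879 to 0.934 with the other libraries and with each other. Some results are therefore also given for replicates 2 and 3 alone.

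Marker genes were read as a check of the cell type. The 10 smooth muscle markers, with Acta2 the most abundant, summed to 1616, 1354 and 1367 FPKM in Flox 1, 2 and 3 and to 585, 843 and 818 FPKM in KO 1, 2 and 3. Acta2, the gene of smooth muscle actin, fell by 1.55 on the log2 scale (adjusted p = 0.00803 in limma) and was the 1 marker of the 8 tested that was called, beside Cald1 with the block (−0.58, adjusted p 0.0757 in limma, 0.0488 with the block). Other markers fell mainly in KO 1, where Tagln was at 12.5 and Myl9 at 10.4 FPKM, and in replicates 2 and 3 alone Tpm2, Myl9, Tagln, Cnn1 and Smtn were at −0.015, −0.031, −0.077, −0.074 and 0.052 and Lmod1 was higher, at 0.83 (adjusted p = 0.00335 in limma). Myh11 stayed at or below 0.22 FPKM and Myocd, the gene of myocardin, at or below 0.48 FPKM, so these defining markers of contractile smooth muscle were near 0 in both groups. The 8 adventitial fibroblast markers, with Dcn the most abundant, summed to 307, 943 and 810.5 FPKM in Flox and 146, 731 and 712 FPKM in KO, low in both replicate 1 libraries, and 1 of them, Dpt, was called lower (99.9 FPKM in Flox and 1.70 in KO on average, log2 fold change −5.28, adjusted p = 0.00417 in limma). Cd34, Pdgfra, Pi16 and Ly6a were at −2.85, −1.66, −1.32 and −1.09. With the block Dpt, Cd34 and Ly6a were called lower and Col14a1 higher (19.4 FPKM in Flox and 141 in KO on average, log2 fold change 2.87, adjusted p 0.0683 in limma, 0.0032 with the block), and Lum and Dcn also lay higher on average, at 1.82 and 0.53, so these markers had no common direction. Among the other lists, leukocyte and macrophage markers summed to 42.7, 30 and 26.7 FPKM in Flox and 40.9, 18.3 and 22.8 in KO, with Cd14 the most abundant and Ptprc and Adgre1 below 0.05 FPKM in every library. Striated muscle markers, with Tnnt2 the most abundant, summed to 29.6, 8.21 and 7.61 FPKM in Flox and 3.68, 4.50 and 4.55 in KO, with Ckm below 0.05. Adipocyte markers summed to 6.24, 5.04 and 3.12 FPKM in Flox and 119, 5.39 and 6.07 in KO, where the value of KO 1 came from Fabp4 while Plin1 was below 0.05. Endothelial markers summed to at most 5.41 FPKM and germ cell markers to at most 1.86 FPKM in any library, with Cdh5, Tie1 and Dazl below 0.05 in every library. Of the 8 tested genes of the last 5 lists 0 were called in limma. At an unadjusted p under 0.05, 1 was lower and 2 were higher, beside 1405 and 1151 of the 12565 genes tested. The part of any of these cell types in the ribosomal protein values was not tested.

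Each ribosome carries a single copy of nearly every ribosomal protein, and cells make the proteins in matched amounts. The large subunit forms the peptide bond and releases the growing chain through an exit tunnel, while the small subunit threads and decodes the mRNA. Nearly all ribosomal protein mRNAs begin with a run of C and T bases (a terminal oligopyrimidine, or TOP, motif) through which TOR signalling and Larp1 control their translation, and in smooth muscle, as in other cells, ribosome production goes with growth.

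The ribosomal protein genes took a smaller share of the summed FPKM in KO. They made up 11.2%, 14.4% and 12.9% of the summed FPKM in Flox 1, 2 and 3, and 9.18%, 10.0% and 9.79% in KO 1, 2 and 3. Flox 2 was highest, and every KO library lay below every Flox library. The mean was 12.8% ± 1.59 (SD, n = 3) against 9.66% ± 0.427, a difference of −3.18 percentage points and a ratio of 0.752. An exact two-sided permutation test gave p = 0.1, the smallest p that 3 against 3 libraries allow. The difference was −2.03, −4.39 and −3.13 points in the same-numbered pairs 1, 2 and 3. Large subunit genes went from 7.53% ± 0.961 to 5.93% ± 0.225 (ratio 0.787) and small subunit genes from 5.22% ± 0.630 to 3.65% ± 0.206 (ratio 0.698). In bulk RNA, fewer cells of a type and less RNA per cell cannot be told apart. A share is also a relative measure: the total RNA per cell is not known from these libraries. FPKM is divided by transcript length, so the share is not one of RNA mass or of reads.

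**Figure D1:**
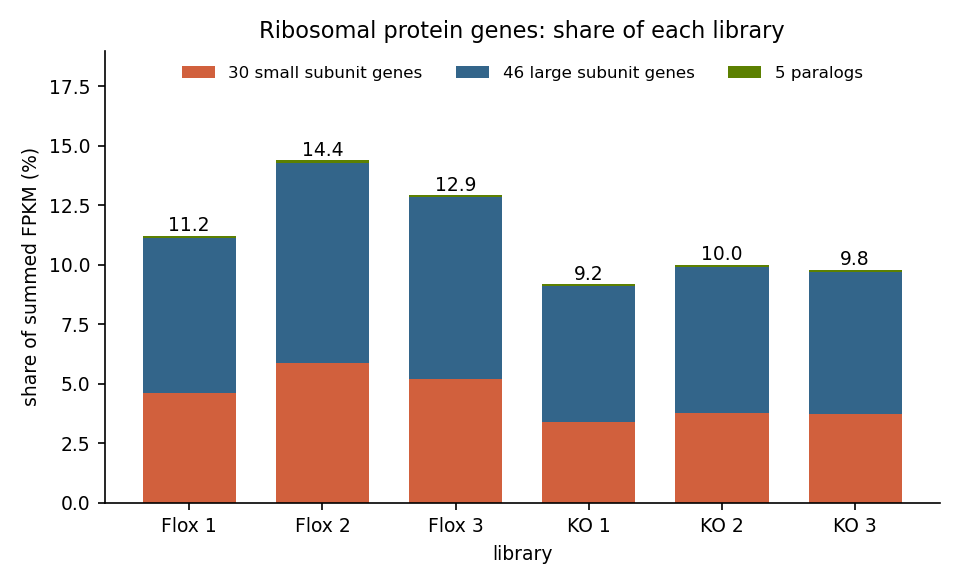
Share of the summed FPKM of each library (%, y axis) taken by 30 small subunit genes, 46 large subunit genes and 5 paralogs, for 3 Flox and 3 KO libraries (x axis), with the total above each bar. The KO bars, at 9.2% to 10.0%, all end below the lowest Flox bar, at 11.2%.

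Per gene, 77 of the 80 tested members lay lower in KO and 3 above 0, with 74 lower after rescaling to TPM, 71 after quantile normalization and 76 after scaling to the FPKM of the other genes. The median log2 fold change was −0.47, beside −0.018 over all genes tested, which on this scale puts the median member at 72.2% of its Flox level. Rescaling to TPM moved the median of all genes by 0.11 on the log2 scale, and relative to that median the members lay at −0.45 with FPKM, −0.44 with TPM, −0.25 with quantile normalization and −0.44 with scaling to other genes. Log2 fold changes ran from −1.004 for Rps26 to 0.012 for Rpl5, with standard errors between 0.111 and 0.386 (median 0.172).

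Few of these genes passed the test one by one. In limma at an adjusted p under 0.05, 2 members, Rps26 and Rps2, were lower, or 2.5% of the 80 beside 1.21% of all genes tested, and 0 were higher beside 1.23%. At an unadjusted p under 0.05, 52 members were lower beside 11.2% of all genes, and 0 were higher beside 1151 of the 12565 genes tested. The groups did not overlap, with all KO libraries below all Flox libraries, for 53 members beside 15% of all genes, and the opposite held for 0 members beside 13.1%. All 3 same-numbered pairs were lower for 68 members beside 29.3% of all genes. At the cutoffs of the study's methods, an adjusted p under 0.01 with a fold change above 2, 0 members were called in limma beside 0.422% of all genes, although the 52 stood at an unadjusted p under 0.05. The study's own calls came from the sequencing company's analysis, and a figure legend gives a stricter adjusted p. This count is therefore not a count within the study's gene list. With TPM, 1 member was called lower beside 0.788%, while the split over all genes went from 152 lower and 154 higher to 99 lower and 247 higher.

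The replicate number as a block gave more calls. With the block, 21 members were lower beside 5.72% of all genes and 0 were higher beside 4.72%: 13 of the large subunit and 8 of the small subunit, with adjusted p between 0.0137 and 0.0496 in limma. Among them were Rps26, Rps2, Rpl41, Rps15, Rps12, Rpl22 and Rpl10a. Across genes, the deviations from the group means correlated at 0.61, 0.46 and 0.53 in the same-numbered pairs 1, 2 and 3, but also at 0.46 between Flox 2 and KO 3 and 0.44 between Flox 3 and KO 2, so they set replicate 1 apart and support the numbering of replicates 2 and 3 little. The median standard error of the members was 0.172 without the block and 0.115 with it. Within Flox, 77 of the 80 members were highest in Flox 2 and 70 were lowest in Flox 1, and within KO 49 were lowest in KO 1. TPM with the block gave 13 members beside 3.78%. In replicates 2 and 3 alone, an alternative chosen after seeing the data, 57 members were called lower beside 17.2% of all genes, with a median of −0.55.

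**Figure D2:**
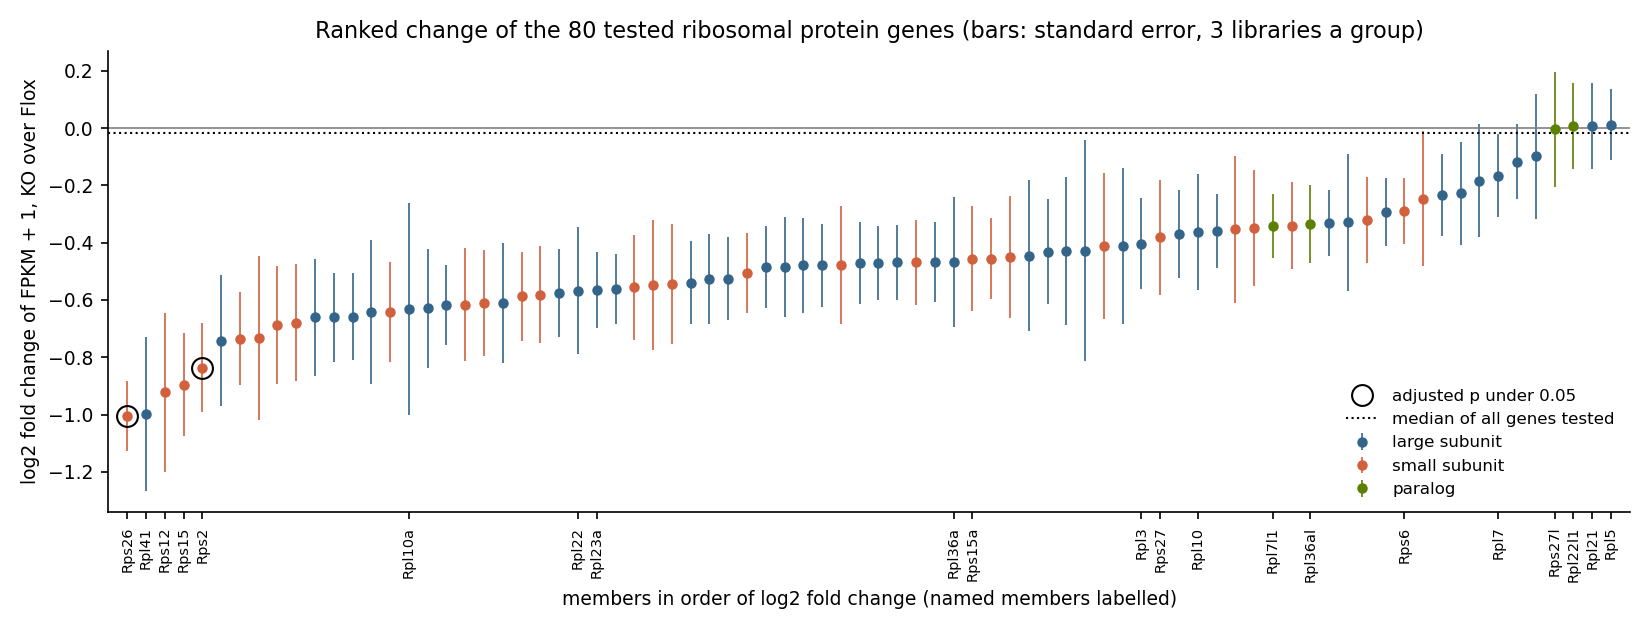
Log2 fold change, KO over Flox, of FPKM plus 1 (y axis) for each of the 80 tested members in ranked order (x axis, with some members labelled), with standard errors as bars, subunits in colour, members at an adjusted p under 0.05 circled and the median of all genes tested dotted. All but 3 points lie below 0 (6 with TPM, 9 with quantile normalization, 4 with scaling to other genes), from −1.004 for Rps26 to 0.012 for Rpl5.

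Both subunits took part. All 30 small subunit genes lay below 0 under FPKM, TPM, quantile normalization and scaling to other genes, with a median of −0.54 under FPKM, 24 genes whose groups did not overlap, 8 called with the block and 2 called without it (15%, 5.72% and 1.21% of all genes). Of the 46 large subunit genes 44 lay below 0 under FPKM, 42 under TPM, 39 under quantile normalization and 44 under scaling to other genes, with a median of −0.47, 27 genes whose groups did not overlap, 13 called with the block and 0 without it, and 29 at an unadjusted p under 0.05 in limma (11.2% of all genes). The summed FPKM of the large subunit genes was 1.42, 1.44 and 1.47 times that of the small subunit genes in Flox 1, 2 and 3, and 1.67, 1.63 and 1.59 times in KO 1, 2 and 3. Every KO ratio lay above every Flox ratio (1.44 ± 0.0279 against 1.63 ± 0.0414, SD, n = 3, exact two-sided permutation p = 0.1). Without Rps26 and Rps2, which were left out because they were the members called lower, it was 1.90, 1.75 and 1.83 in Flox and 2.06, 1.95 and 1.88 in KO (1.83 ± 0.0771 against 1.96 ± 0.0897). All 3 same-numbered pairs were then still higher in KO, while KO 3 lay below Flox 1 (exact permutation p = 0.2).

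By position in the ribosome, the 8 genes at the mRNA entry and the head of the small subunit (Rps2, Rps3, Rps10, Rps12, Rps15, Rps18, Rps19 and Rps20) had a median of −0.71, with 7 whose groups did not overlap, 1 called and 5 called with the block, beside 15%, 1.21% and 5.72% of all genes, which hold for comparison with the other counts of this paragraph too. The 5 genes at the mRNA exit and platform (Rps14, Rps26, Rps27, Rps28 and Rpsa) had a median of −0.41, and 1 of them, Rps26, was called. The 8 genes around the peptide exit tunnel (Rpl4, Rpl17, Rpl19, Rpl23a, Rpl26, Rpl31, Rpl35 and Rpl39) all lay below 0 under the 4 scalings, with a median of −0.43, and 0 were called in limma with or without the block. At an unadjusted p under 0.05, 4 were lower without the block and 6 with it, beside 1405 and 2187 of the 12565 genes tested. The 4 stalk genes, whose proteins recruit the elongation factors, had a median of −0.48 and all lay below 0, except that 3 did under quantile normalization, and 1 of them, Rpl12, was called, with the block. Rpl5 and Rpl11, whose proteins bind the 5S RNA and can hold the p53 ubiquitin ligase MDM2, parted: Rpl11 was at −0.66 (adjusted p 0.0795 in limma, 0.0274 with the block) and Rpl5 at 0.012. Of 10 genes mutated in Diamond-Blackfan anaemia, a failure of red cell production, 9 lay below 0 under each scaling, with a median of −0.51, 1 called and 4 called with the block. Rps27a, whose product is made as a fusion with ubiquitin, was at −0.59, and Rps6, the ribosomal protein that TOR signalling phosphorylates through S6 kinase, was at −0.29. With the median of the other genes of each chromosome removed, as described below, the medians by position lay closer together, at −0.56 for the mRNA entry and head, which hold Rps12 and Rps15 of chromosome 10, −0.49 for the mRNA exit and platform, −0.47 for the exit tunnel and −0.58 for the stalk. Under quantile normalization the same medians were −0.53, −0.17, −0.15 and −0.22 in that order, so their spacing depended on the processing.

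Rps26 (gene 27370), whose protein lines the mRNA exit channel of the small subunit, had 2369.7, 2594 and 2361 FPKM in Flox 1, 2 and 3 and 1147, 1324 and 1183 FPKM in KO 1, 2 and 3. The Flox libraries lay close together, the KO libraries did too, and the groups were far from overlapping. It had the highest mean of the members over the 6 libraries, 1830 FPKM, with 2442 ± 132 FPKM (SD, n = 3) in Flox and 1218 ± 93.7 FPKM in KO, although Rpl23a and Rps2 averaged more in KO (1396 and 1227 FPKM) and Rps2 was higher in Flox 1. It fell by 1.004 on the log2 scale, with a standard error of 0.123 (adjusted p = 0.0151 in limma, 0.0138 with the block), and all 3 pairs were lower. The adjusted p rose to 0.0767 without Flox 2, 0.102 without Flox 3, 0.0775 without KO 2 and 0.112 without KO 3, and it ran from 0.00248 to 0.165 over all alternatives, with log2 fold changes from −1.07 to −0.61. Rps26 took 5.10%, 3.99% and 4.33% of the members' summed FPKM in Flox and 3.19%, 3.30% and 3.11% in KO, so it lay lower in KO also relative to the family.

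Rps2 (gene 16898), whose protein sits at the mRNA entry of the small subunit, had 2506, 2106 and 1968 FPKM in Flox 1, 2 and 3 and 1374, 1218 and 1089 FPKM in KO 1, 2 and 3. It was highest in replicate 1 of each group, unlike most members, and the groups did not overlap. Its mean was 2193 ± 279.6 FPKM (SD, n = 3) in Flox and 1227 ± 143 FPKM in KO, and it fell by 0.84 on the log2 scale, with a standard error of 0.154 (adjusted p = 0.0493 in limma, 0.0189 with the block). Its call ended without Flox 1 (adjusted p = 0.0736), Flox 2 (0.165), Flox 3 (0.167), KO 2 (0.173) or KO 3 (0.215). It also ended without the filter (0.0668), with TPM (0.065), quantile normalization (0.217) or scaling to other genes (0.0549), without trend and robust settings (0.0554) and with chromosome medians removed (0.0728), in a range of 0.00492 to 0.217 over all alternatives, while its log2 fold change lay between −0.92 and −0.71 in all of them. Rps2 and many other ribosomal protein genes have near-identical pseudogenes in the genome, and how the authors' tool divided reads between such copies cannot be seen from FPKM.

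Promoter sequence is shown for the 2 called genes and for Rpl5, the member with the highest log2 fold change, so that the upstream sequence of genes that fell stands beside that of a gene near 0. Each line gives the 250 bases before the RefSeq transcription start on GRCm38.p6, 5′ to 3′ on the strand of the gene, with CGGAAG or its reverse complement in capitals, the core of the sites bound by ETS family factors. The Rps26 stretch is chr10:128626507-128626756 on the minus strand, that of Rps2 is chr17:24719813-24720062 on the plus strand, and that of Rpl5 is chr5:107900278-107900527 on the plus strand.
Rps26: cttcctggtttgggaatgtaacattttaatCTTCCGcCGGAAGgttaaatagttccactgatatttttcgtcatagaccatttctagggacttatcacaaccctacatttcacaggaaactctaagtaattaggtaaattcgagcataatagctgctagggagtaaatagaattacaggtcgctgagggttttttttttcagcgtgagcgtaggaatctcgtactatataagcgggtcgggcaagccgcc
Rps2: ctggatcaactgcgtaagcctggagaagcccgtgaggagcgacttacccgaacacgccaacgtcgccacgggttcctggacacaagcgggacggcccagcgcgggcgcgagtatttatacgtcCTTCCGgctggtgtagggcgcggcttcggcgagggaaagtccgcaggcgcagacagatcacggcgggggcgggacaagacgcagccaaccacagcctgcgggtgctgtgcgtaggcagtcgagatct
Rpl5: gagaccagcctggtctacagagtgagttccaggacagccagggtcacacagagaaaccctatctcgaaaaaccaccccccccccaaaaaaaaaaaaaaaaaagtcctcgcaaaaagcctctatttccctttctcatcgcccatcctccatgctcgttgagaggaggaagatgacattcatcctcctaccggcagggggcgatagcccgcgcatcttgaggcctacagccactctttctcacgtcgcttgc
Rps26 has a match on each strand, with a single base between them, Rps2 has 1 match, and the Rpl5 stretch has 0. These genes were picked by their fold changes. Over the members with promoter windows, the median log2 fold change was −0.47 with a match and −0.45 without one.

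Rpl41 (gene 67945), which encodes the smallest ribosomal protein, had 1263, 2168 and 1525 FPKM in Flox 1, 2 and 3 and 629, 1062 and 782 FPKM in KO 1, 2 and 3. Within each group replicate 2 was high and replicate 1 low, and the groups did not overlap. The log2 fold change was −0.999, with a standard error of 0.268, nearly that of Rps26, but with the wider spread the adjusted p was 0.111 in limma and 0.0137 with the block. Rps12 (gene 20042), in the head of the small subunit, had 624, 1255 and 1057 FPKM in Flox and 415, 522 and 559 FPKM in KO. Flox 1 was the lowest of the Flox libraries and still above every KO library. It lay at −0.92 on the log2 scale, with a standard error of 0.278 (adjusted p 0.136 in limma, 0.0338 with the block). Rps15 (gene 20054), whose protein reaches towards the decoding site, had 1186, 1734 and 1346 FPKM in Flox and 668, 834 and 771 FPKM in KO. Again replicate 2 was highest in each group, and the groups did not overlap. It lay at −0.90, with a standard error of 0.180 (adjusted p 0.0593 in limma, 0.0202 with the block).

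At the other end of the ranking, Rpl5 (gene 100503670) had 87.5, 107 and 99.5 FPKM in Flox 1, 2 and 3 and 95.6, 97.4 and 103 FPKM in KO 1, 2 and 3. The groups lay on top of each other. The log2 difference was 0.012, with a standard error of 0.123 (adjusted p 0.969 in limma), and its sign turned in replicates 2 and 3 alone, at −0.044. Rpl21 had 227, 315 and 266 FPKM in Flox and 279.7, 262 and 265 FPKM in KO, a log2 fold change of 0.0083, or −0.14 in replicates 2 and 3. Here Flox 1 was the lowest and Flox 2 the highest of the 6 libraries. Rpl22l1, the third member above 0, is described with the paralogs.

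Levels differed between members far more than between groups. The mean FPKM of the tested members spanned a factor of 62.6, with Rps26, Rpl23a, Rps2, Rpl10 and Rpl41 at the top and Rps15a, Rps6, Rpl7l1 and Rpl10a at the bottom. Of the 100 genes with the highest FPKM in the table, 41 were members. Rpl23a, a protein of the tunnel exit, had 1918, 2183 and 2081 FPKM in Flox and 1562, 1305 and 1321 FPKM in KO, without overlap (log2 fold change −0.56, adjusted p 0.0804 in limma, but −0.20 with quantile normalization). Rpl10, which lies near the peptidyl transferase centre, had 1165, 1920.2 and 1693 FPKM in Flox and 1238, 1158 and 1242 FPKM in KO. Flox 1 was level with KO, so the groups overlapped (log2 fold change −0.36, and −0.11 with quantile normalization). Rps6 had 37.8, 36.2 and 34.0 FPKM in Flox and 27.5, 29.0 and 31.3 FPKM in KO. It was low for a ribosomal protein and its groups did not overlap. Rps15a had 26.8, 42.5 and 33.3 FPKM in Flox and 22.9, 25.7 and 24.1 FPKM in KO (log2 fold change −0.46). The transcript length matched to Rps15a, 5179 bases, is the longest of the members, but the length by which the authors divided is not known. Rpl10a had 109, 57.8 and 45.6 FPKM in Flox and 61.7, 35.7 and 34.3 FPKM in KO, highest in replicate 1 of each group (log2 fold change −0.63, adjusted p 0.400 in limma, 0.0403 with the block). Without Flox 1 its log2 fold change was −0.27, and with the block the adjusted p was 0.0571 under TPM and 0.072 with chromosome medians removed, in a range of 0.0181 to 0.717 over all alternatives. The order of the members by FPKM was much the same in all libraries. Spearman's rho across all 81 members, the untested Rpl3l included, was between 0.929 and 0.993 for pairs of libraries (genes are not independent replicates).

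The members' fold changes followed the chromosome on which they lie. Members lie on 19 chromosomes, and on each of the 19 their median lay below the median of the other tested genes of that chromosome, under FPKM, TPM, quantile normalization and scaling to other genes alike. The difference ran from −0.60 on chromosome 10 to −0.30 on chromosome 1. Over the 19 chromosomes the member median and the other-gene median had a Pearson r of 0.95 and a Spearman rho of 0.94, a description of points that come from the same 6 libraries. On chromosome 10 the 570 other genes had a median of −0.36, and its 4 members, Rpl41, Rps12, Rps15 and Rps26, were the 4 lowest of all members, with a median of −0.96. On chromosome 5 the 734 other genes had a median of 0.28, and its 5 members, Rpl21, Rpl5, Rpl6, Rpl9 and Rplp0, had a median of −0.10. Chromosome 7, with 14 members the richest, had −0.49 for members and −0.037 for other genes, and chromosome 19, at −0.42 for other genes, holds no member. The chromosome 10 median of the other genes was −0.28, −0.41 and −0.39 in pairs 1, 2 and 3, and that of chromosome 5 was 0.38, 0.21 and 0.24. What makes whole chromosomes differ between these groups was not tested.

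**Figure D3:**
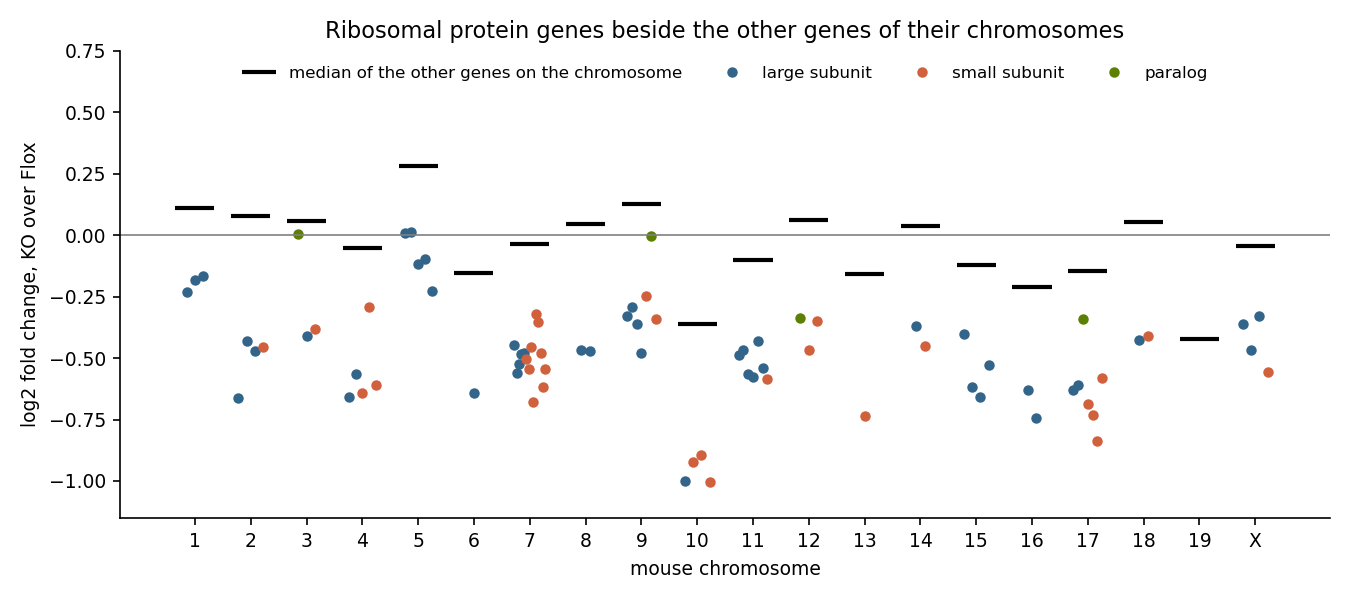
Log2 fold change, KO over Flox (y axis), of each tested member (points, coloured by subunit) by mouse chromosome (x axis), with the median of the other tested genes of the chromosome as a black bar. On each of the 19 chromosomes with members, also after TPM, quantile normalization or scaling to other genes, the member median lies below the bar, and the 4 members of chromosome 10 are the lowest.

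Once the median of the other genes of each chromosome was removed from each library, an alternative chosen after seeing the data, all 80 members lay below 0. Their median stayed at −0.47, while the SD among members went from 0.212 to 0.129. Rps26 then had −0.61 (adjusted p 0.165 in limma, 0.041 with the block), Rpl41 −0.60, Rps12 −0.53 and Rps15 −0.50 (adjusted p with the block 0.0393, 0.0892 and 0.0607), and Rpl5 and Rpl21 moved to −0.31 and −0.32. After this removal 0 members were called in limma, beside 0.613% of all genes, and with the block 14 were, beside 2.05%. At an unadjusted p under 0.05 without the block, 40 members were lower, beside 968 of the 12565 genes tested. The ratio of the large to the small subunit without the 4 chromosome 10 members was 1.73, 1.72 and 1.79 in Flox and 1.95, 1.89 and 1.85 in KO, and also without Rps2 it was 2.08, 1.91 and 2.02 against 2.22, 2.09 and 2.04 (exact two-sided permutation p = 0.1 and 0.2).

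The 3 same-numbered pairs differed in size. The member median was −0.32, −0.67 and −0.43 in pairs 1, 2 and 3, beside 0.057, −0.074 and −0.034 for the other genes. Of the 80 members 69, 80 and 78 lay lower in KO, whereas 45.0%, 57.6% and 54.0% of the other genes did. The 4 members on the X chromosome, singled out after their values were seen, split the pairs. Rpl10, Rps4x, Rpl36a and Rpl39 had differences of 0.087, −0.12, 0.20 and 0.29 in pair 1, of −0.73, −0.94, −0.96 and −0.84 in pair 2, and of −0.45, −0.61, −0.65 and −0.44 in pair 3. Their median was thus 0.15 in pair 1 and −0.89 and −0.53 in the others, whereas the 76 autosomal members had −0.33, −0.66 and −0.43. Members of some autosomes split the pairs in the same order, with medians of 0.096, −0.50 and −0.25 for the 3 on chromosome 1 and 0.087, −0.27 and −0.035 for the 5 on chromosome 5, and the 371 other X-linked genes had 0.095, −0.14 and −0.10. In pair 1, 12 autosomal members also lay above the lowest of the X-linked ones. Whether the X-linked members differ from the autosomal ones was not tested.

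**Figure D4:**
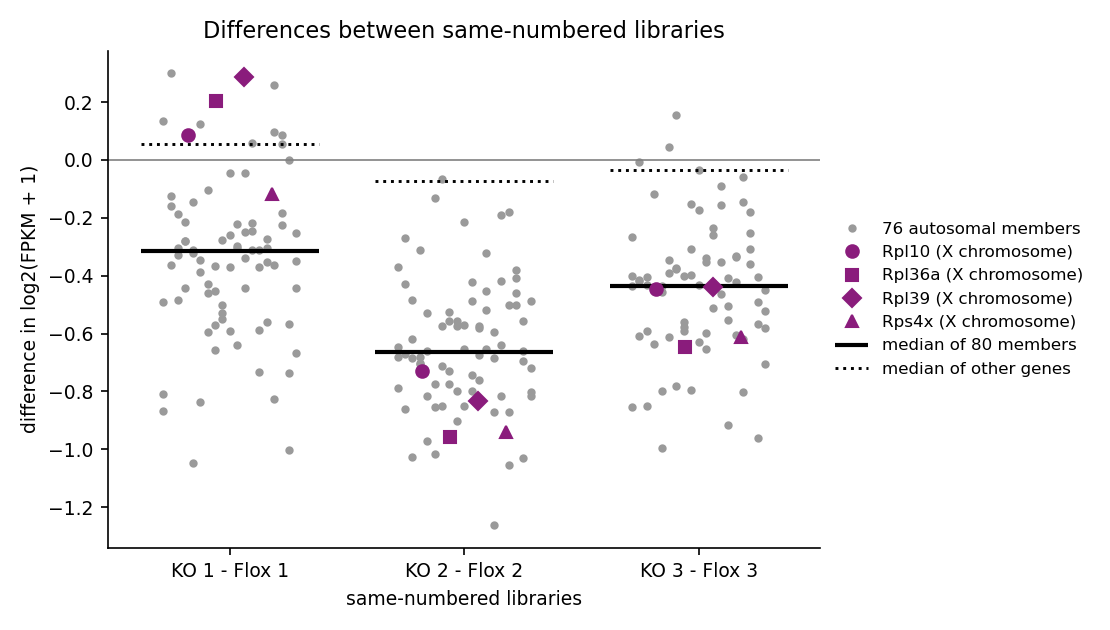
Difference in log2(FPKM + 1), KO minus Flox (y axis), for the 80 tested members in the 3 same-numbered pairs of libraries (x axis), with autosomal members as grey points, the 4 X-linked members as large symbols, the member median as a line and the median of other genes dotted. The member median is −0.32, −0.67 and −0.43, and 3 of the 4 X-linked members are above 0 in pair 1 and none in the other pairs.

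Paralogs were compared with their main genes as ratios of FPKM within a library. Quantile normalization, which changes values by their level, gave log2 fold changes of 0.047 for Rps27l and −0.11 for Rps27, 0.065 for Rpl22l1 and −0.51 for Rpl22, −0.31 for Rpl7l1 and 0.12 for Rpl7, and −0.26 for Rpl36al and −0.19 for Rpl36a, so the size of these ratios depends on it, and for Rpl36al the direction. Of the 4 tested paralogs 3 lay lower in KO under FPKM and 2 under each of TPM, quantile normalization and scaling to other genes, with a median of −0.17. In limma 0 were called without or with the block, beside 1.21% and 5.72% of all genes called lower. At an unadjusted p under 0.05, 2 were lower in either fit, beside 1405 and 2187 of the 12565 genes tested. Rps27l, a p53-inducible copy of Rps27, had 94.5, 135 and 101 FPKM in Flox 1, 2 and 3 and 87.8, 129 and 113 FPKM in KO 1, 2 and 3. Its groups overlapped fully (log2 fold change −0.0049, positive at 0.12 with TPM). Rps27 itself had 621, 956 and 746 FPKM in Flox and 491, 642 and 634 FPKM in KO (log2 fold change −0.38), lower in each pair but with overlapping groups. Rps27l was therefore 15.2%, 14.1% and 13.6% of Rps27 in Flox and 17.9%, 20.04% and 17.8% in KO. All KO ratios lay above all Flox ratios, by 0.38 on the log2 scale (exact two-sided permutation p = 0.1, adjusted over the 5 paralog pairs 0.25).

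Rpl22l1 and its main gene Rpl22, RNA-binding proteins of the large subunit, stood nearly level in Flox and in KO 3, while Rpl22l1 stood above Rpl22 in KO 1 and KO 2. Rpl22l1 had 63.3, 83.9 and 67.5 FPKM in Flox and 76.02, 73.9 and 64.8 FPKM in KO, and Rpl22 had 58.8, 92.7 and 81.2 FPKM in Flox and 41.2, 52.9 and 61.4 FPKM in KO. Only Rpl22 was lower in each pair (log2 fold change −0.57, adjusted p 0.221 in limma, 0.0471 with the block, 0.0615 with TPM and the block). The paralog was 108%, 90.5% and 83.1% of the main gene in Flox and 184%, 140% and 106% in KO, higher in each pair, by 0.57 on the log2 scale, though KO 3 lay below Flox 1 (exact permutation p = 0.2, adjusted 0.25), and by 0.38 without KO 1. Rpl7l1 had 37.97, 39.98 and 36.3 FPKM in Flox and 31.2, 29.7 and 28.6 FPKM in KO, and Rpl7 had 719, 957 and 863 FPKM in Flox and 788, 741 and 718 FPKM in KO. The paralog was 5.28%, 4.18% and 4.21% of Rpl7 in Flox and 3.96%, 4.01% and 3.98% in KO, with all KO ratios below all Flox ratios, by −0.17 on the log2 scale (exact permutation p = 0.1, adjusted 0.25). Without Flox 1 the difference was −0.063, and with chromosome medians removed the log2 fold changes were −0.25 for Rpl7l1 and −0.26 for Rpl7.

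Rpl36al, on an autosome, had 146, 182 and 155 FPKM in Flox and 131, 135 and 115 FPKM in KO, without overlap. Its X-linked main gene Rpl36a had 553, 818 and 660.1 FPKM in Flox and 637, 421 and 421 FPKM in KO, with KO 1 above Flox 1. The ratio was 26.4%, 22.2% and 23.4% in Flox and 20.6%, 32.0% and 27.4% in KO, with no common direction (log2 difference 0.13, exact permutation p = 0.6, adjusted 0.6). Rpl3l, the copy of Rpl3 used in skeletal and heart muscle, was at 0.06, 0 and 0 FPKM in Flox and 0.04, 0.01 and 0 FPKM in KO, at most about 1 fragment in a library. Rpl3 had 606, 849.8 and 775 FPKM in Flox and 532, 553 and 586 FPKM in KO (log2 fold change −0.40, and −0.12 with quantile normalization), so a difference in the ratio (0.40, exact permutation p = 0.2, adjusted 0.25) reflects Rpl3 and the pseudocount, and none in Rpl3l was detectable at this depth.

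**Figure D5:**
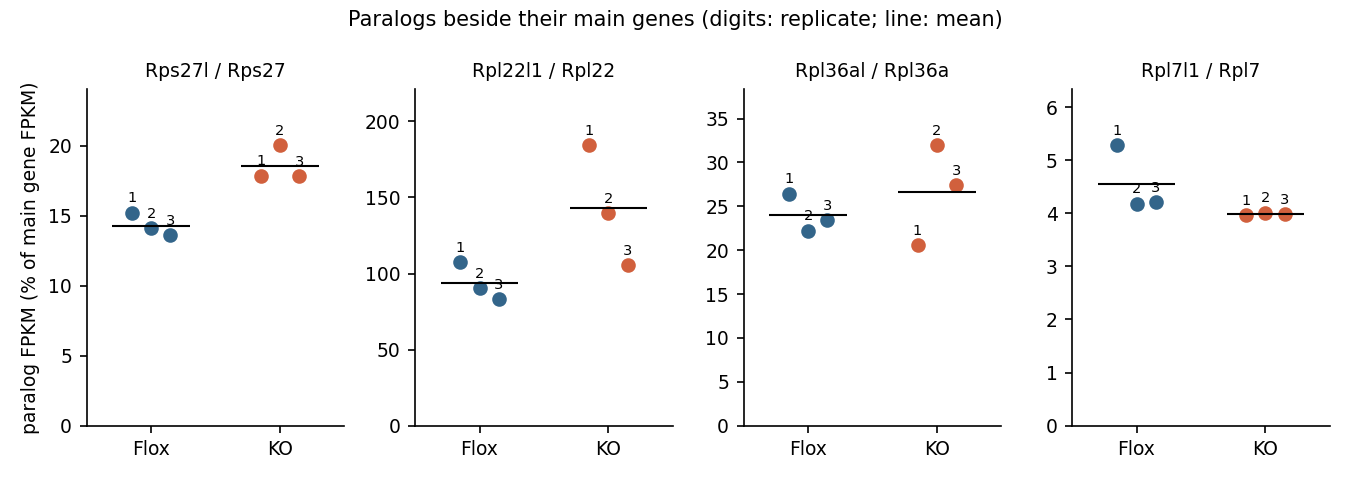
FPKM of 4 paralogs as a percentage of the FPKM of their main genes (y axes, 1 panel a pair) in 3 Flox and 3 KO libraries (x axis), with the replicate number at each point and a line at the mean. Rps27l is at 13.6% to 15.2% of Rps27 in Flox and 17.8% to 20.04% in KO, while the Rpl36al points of the groups overlap.

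Genes that work with the ribosome were read beside the members, from lists. The 19 translation factors and other TOP mRNAs lay below 0 in all 19 cases under FPKM, TPM and scaling to other genes and in 18 under quantile normalization, with a median of −0.51, 3 called lower and 7 with the block, beside 1.21% and 5.72% of all genes. Eef2, the elongation factor that moves the ribosome along the mRNA, went from 2104 ± 293 to 1136 ± 111 FPKM (SD, n = 3) and fell by 0.88 on the log2 scale (adjusted p = 0.0446 in limma). Eef1g fell by 0.78 (adjusted p = 0.0457) and Npm1, a nucleolar chaperone, by 0.60 (adjusted p = 0.0473). Hnrnpa1, an RNA-binding protein, was at −0.78 (adjusted p 0.121), and Nap1l1, a histone chaperone, at −0.78 (adjusted p 0.0653, 0.0308 with the block). Of ribosomal proteins outside the symbol rule, 4 of 6 symbols were listed, among them Fau at −0.69 (−1.09 in pair 1 and −0.49 in replicates 2 and 3) and Rack1 at −0.55, with 0 called in limma, 3 lower at an unadjusted p under 0.05 (11.2% of all genes), and Rack1 called with the block (adjusted p = 0.0433 in limma). The 78 mitochondrial ribosomal proteins, which build a separate ribosome, had a median of −0.27, with 69 lower under FPKM and 59 under TPM, 0 called in limma (18 at an unadjusted p under 0.05, beside 11.2% of all genes) and 8 called lower with the block, beside 5.72% of all genes. Among these 8 were Mrps6 (−1.28), Mrpl21 (−0.69) and Mrpl54 (−0.69), the mitochondrial genes with the largest log2 fold changes.

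The 55 ribosome assembly genes had a median of −0.41, with 52 lower under FPKM, 46 under TPM and 51 under both other scalings, 0 called in limma (19 at an unadjusted p under 0.05, beside 11.2% of all genes) and 5 called lower with the block, beside 5.72%. Rrp12, Nolc1 and Ddx21, factors of the nucleolus, had −0.85, −0.81 and −0.78, and of these Ddx21 was called with the block (adjusted p = 0.032 in limma). The values of Rrp12 and Nolc1 were −1.40 and −1.32 in pair 1 and −0.57 and −0.55 in replicates 2 and 3. Their pairs ran in another order than those of the ribosomal proteins: the list's median was −0.53, −0.27 and −0.34 in pairs 1, 2 and 3. The 19 TOR and MYC regulators had a median of −0.14, which under TPM was −0.023, with 0 called in limma and 1 called lower with the block, beside 5.72% of all genes. At an unadjusted p under 0.05 in limma, 4 were lower and 1 was higher, beside 1405 and 1151 of the 12565 genes tested. The higher one was Rheb, which activates TOR (0.44, adjusted p 0.121, without overlap between the groups). It lies on chromosome 5, where other genes had a median of 0.28. With chromosome medians removed, 0 regulators were higher and 1 was lower at an unadjusted p under 0.05 in limma. Of the 12565 genes tested, 1052 were higher and 968 lower at that threshold in that fit. The gene called with the block was Eif4ebp2, a repressor of translation that TOR inactivates (−0.63, adjusted p 0.0679 in limma, 0.0259 with the block). Myc was at −0.54 (adjusted p 0.147), with −0.98 in pair 1 and −0.32 in replicates 2 and 3, and Maf1, a repressor of RNA polymerase III, at −0.46. The pair of listed ribosomal protein pseudogenes, Rpl34-ps1 and Rpl31-ps12, were at −0.38 and −0.28, and 0 of 7 snoRNA host RNAs were listed in the table. Many of the genes named from these lists lie on chromosomes whose other genes lay low as a whole: Eef2, Nap1l1, Mrpl54, Ddx21 and Eif4ebp2 on chromosome 10 and Eef1g, Fau, Mrpl21, Rrp12 and Nolc1 on chromosome 19. With chromosome medians removed, the list medians were −0.36 for the translation factors and other TOP mRNAs, −0.21 for the mitochondrial ribosomal proteins, −0.37 for ribosome assembly and −0.072 for the TOR and MYC regulators.

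High level and short length are shared by the members and were looked at in other genes. The 172 other genes that averaged 250 FPKM or more had a median of −0.23, and 68 members were that abundant. By level, the other genes below 5 FPKM had a median of 0.044, those from 5 to 20 FPKM −0.012, from 20 to 100 FPKM −0.056 and from 100 to 250 FPKM −0.14. The median transcript length was 799 bases for members and 2939 for other genes, and other genes under 800 bases had a median of −0.13. The 160 other genes with at least 100 FPKM and under 1500 bases had a median of −0.27, with 128 of them lower. For 55 the KO libraries lay below all Flox libraries without overlap, beside 15% of all genes. Under FPKM these abundant short genes lay lower too, at −0.27 beside −0.47 for the members. The part of level and length in the members' values was not tested. Across the tested members, Spearman's rho was −0.31 between level and log2 fold change, 0.21 between length and log2 fold change and −0.11 between length and level.

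The genes whose pattern over the 6 libraries was most like the members' mean, among 4686 other genes compared, were Atad1 (Pearson r 0.997), Rack1 (0.997), Tspan31 (0.992), Fam162a (0.991) and Ppil2 (0.991). They were picked for the highest r over only 6 libraries in 2 groups, so a high r was to be found for some genes. Shared regulation was not tested. Rack1, itself a protein of the small subunit, had 667, 956 and 819.6 FPKM in Flox and 502, 589.9 and 559.8 FPKM in KO, with Flox 2 highest and KO 1 lowest, as for many members.

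The start of the transcript was searched for the run of C and T bases. RefSeq windows of 300 bases (250 before and 50 after the start, GRCm38.p6) were at hand for 61 of the 81 members, 73 windows in all, and 32851 windows over all genes. A run of at least 8 C or T bases that reaches within 10 bases of the start was in 30 of the 73 member windows (41.1%) and in 13.7% of all windows. Members with such a window had a median log2 fold change of −0.46 and members without one −0.48. The runs are shown for some of the members named above, as 10 bases before and 20 after the start on the strand of the gene, with the longest run in capitals. The stretches are chr10:128626487-128626516 (minus strand) for Rps26, chr10:23787190-23787219 (minus) for Rps12, chr3:90213629-90213658 (minus) for Rps27, chr3:28805498-28805527 (plus) for Rpl22l1, chr4:86857348-86857377 (minus) for Rps6, chr17:24720053-24720082 (plus) for Rps2, chr10:128549149-128549178 (minus) for Rpl41, chr10:80292421-80292450 (plus) for Rps15, chr5:107900518-107900547 (plus) for Rpl5, chr2:39005112-39005141 (minus) for Rpl35, chr9:66946076-66946105 and chr9:66946403-66946432 (plus) for the pair of Rps27l windows and chr4:152324426-152324455 and chr4:152325716-152325745 (plus) for the pair of Rpl22 windows.
Rps26: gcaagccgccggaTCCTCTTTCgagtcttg
Rps12: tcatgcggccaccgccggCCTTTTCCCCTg
Rps27: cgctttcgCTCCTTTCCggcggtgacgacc
Rpl22l1: gcgcaagcccgTTCTCTTCCCacggctgca
Rps6: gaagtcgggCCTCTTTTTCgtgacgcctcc
Rps2: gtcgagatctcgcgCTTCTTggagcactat
Rpl41: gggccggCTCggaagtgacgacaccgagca
Rps15: cagagCTCgcgataactgcgcaagcgcagc
Rpl5: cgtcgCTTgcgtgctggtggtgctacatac
Rpl35: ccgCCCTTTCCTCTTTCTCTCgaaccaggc
Rps27l: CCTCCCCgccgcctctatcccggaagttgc
Rps27l: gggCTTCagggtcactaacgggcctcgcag
Rpl22: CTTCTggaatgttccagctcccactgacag
Rpl22: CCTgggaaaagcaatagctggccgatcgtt
The first 5 have runs of 9 to 11 bases, among them Rps26 at −1.004 and Rpl22l1 and Rps6 at 0.0066 and −0.29. The next 4 have runs of 3 to 6 bases by this rule, among them Rpl41 at −0.999 and Rpl5 at 0.012. In Rpl5 a longer run lies in the 250 bases printed above, but it ends just outside the 10-base limit and is not counted. The starts used in these cells were not measured, so a run can be missed where the RefSeq start differs from them. Rpl35, at −0.43, has a run of 18 bases, Rps27l, at −0.0049, has runs of 9 (begun before the bases shown) and 4, and Rpl22, at −0.57, has runs of 5 and 4 (the latter begun before the bases shown).

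Other motifs in the 300-base windows were CGGAAG on either strand, in 44 member windows (60.3%) and 16.9% of all windows, and CTCTTTC on the strand of the gene, in 15 (20.5%) and 3.99%, a motif that can lie inside a run of C and T bases, as it does in Rps26. CACGTG, the E-box bound by MYC with its partner MAX and the same on both strands, was in 10.96% of member windows and 7.15% of all windows, and TATAAA on the strand of the gene was in 8.22% and 8.32%. Members with CGGAAG had a median log2 fold change of −0.47 and those without −0.45. A match is a description of the letters in the window and not a bound site.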

How the data were processed

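RNA of primary aortic smooth muscle cells was measured by RNA-seq in 3 Flox and 3 SMYD2 KO libraries. The authors used SOAPnuke for filtering, HISAT and Bowtie2 for mapping and RSEM for expression, and deposited FPKM to 2 decimals; versions and genome build are not given in the sources used here. Every value column could be matched to a sample, and groups come from the labels.

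Values were log2(FPKM + 1). The 12565 genes that averaged 0.5 FPKM or more were tested for a group difference by limma 3.58.1 under R 4.3.3 (lmFit, eBayes with trend and robust settings), two-sided, with Benjamini-Hochberg adjustment over all genes tested. Single values per library had exact two-sided permutation tests. Members and lists were chosen with earlier results of these data known. Genes named are members called at an adjusted p under 0.05, the 5 highest and 5 lowest by mean FPKM, paralogs with their main genes, the 5 largest rises and falls, up to 3 genes with the largest absolute log2 fold change of each other list, Smyd2 and the 5 genes most like the members' mean. Genes named beyond this rule, such as those of the roles, chromosomes, markers and calls in other lists, were named after their values were seen.

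Same-numbered libraries deviated together from their group means, with correlations of 0.61, 0.46 and 0.53 across genes for replicates 1, 2 and 3, but Flox 2 with KO 3 had 0.46 and Flox 3 with KO 2 had 0.44, so the values set replicate 1 apart and support the pairing of replicates 2 and 3 little. The replicate number was also used as a block. Depth was estimated at 17400000 to 19900000 fragments per library, at which 1 fragment on a kilobase is 0.0503 to 0.0575 FPKM; this covers counting error only. GENCODE M21 (GRCm38) gave chromosome and length for 11650 tested genes and all 81 members, and RefSeq gave promoter windows. Alternatives were a pseudocount of 0.1, no filter, the block, each library left out, TPM, quantile normalization, scaling to other genes, and limma without trend and robust settings; added after seeing the data were replicates 2 and 3 alone, removal of chromosome medians with and without the block, and TPM with the block. The fits were tested on simulated data. Python 3.11.15, numpy 2.4.6, pandas 2.3.3, scipy 1.17.1 and matplotlib 3.10.9 were used.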

Additional observations from a re-analysis of the deposited data

How the results depend on the processing

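The median log2 fold change of the members, and of each subunit, stayed below 0 in all alternatives. It was −0.26 for all tested members, −0.20 for the large and −0.32 for the small subunit after quantile normalization, and between −0.59 and −0.36, −0.58 and −0.37, and −0.71 and −0.39 in the fits that leave out a library. The difference in share of summed FPKM stayed below 0 with each library left out. It was largest in size without Flox 1 and smallest without Flox 2, at −2.41 percentage points. Taken as a percentage of the summed FPKM of the other genes, which is not a share of the whole sum, the members differed by −4.07 points. The count of members called lower, 2 in the fit reported, was 1 without the filter, with TPM, with scaling to other genes and without trend and robust settings, and 0 with chromosome medians removed. It was 21 with the replicate block, 13 with TPM and the block, 14 with chromosome medians removed and the block, and 57 in replicates 2 and 3 alone, where 1 member also passed the study's cutoffs. When a library was left out it ran from 0 to 3, at 0 without Flox 2, Flox 3, KO 2 or KO 3. Members called higher numbered 0 in every alternative in limma, and 0 were higher at an unadjusted p under 0.05 in the reported fit and with the block.

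Members near 0 changed sign. Rpl21 was at −0.14 in replicates 2 and 3, at −0.32 with chromosome medians removed, with or without the block, and between −0.11 and 0.13 with a library left out. Rpl22l1 was at −0.12, −0.046 and −0.046 in these settings and between −0.075 and 0.12 with a library left out, and Rpl5 at −0.044, −0.31 and −0.31 and between −0.065 and 0.077. Rps27l was at 0.12 with TPM, with or without the block, 0.047 with quantile normalization, 0.067 with scaling to other genes, 0.045 in replicates 2 and 3 and between −0.13 and 0.15 with a library left out, and Rpl7 was at 0.12 with quantile normalization. The log2 ratio of Rpl36al to Rpl36a ran from −0.011 (without KO 2) to 0.31. Of the values of the 21 named members under the alternatives, 293 kept direction and side of the threshold, 25 changed sign, 23 passed the threshold where the reported fit did not, and 16 no longer passed it, 11 for Rps2 and 5 for Rps26. The cause of these changes was not tested, except that leaving out a library leaves fewer samples.

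Depth limits Rpl3l alone among the members, which had at most about 1 fragment in a library. FPKM cannot show how reads shared with pseudogenes were divided, and count-based tests were not run, since the table holds no counts. Groups of 3 libraries allow no exact p below 0.1. Which passage and medium the cells came from is uncertain.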
